A study of Mus musculus with 14 samples.

Results

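The genes described here are 10 genes that mark the naive state of T lymphocytes: Tcf7, Lef1, Foxo1, Foxp1, Klf2, Bach2, Satb1, Id3, Dapl1 and Actn1. They were chosen by name, and the Ensembl identifiers of the count tables were matched to those symbols, which found all 10 among the 22598 genes counted. The study sorted naive CD4+ T cells from mouse spleen, activated them and polarised them towards the Th2 state, the helper T cell type that makes interleukin 4, 5 and 13. It compared wild-type cells with cells lacking Argonaute 1, 3 and 4, proteins that load small RNAs, by bulk RNA sequencing of total RNA. The 4 groups were all C57BL/6J and cultured under Th2 conditions: wild type at day 7 (4 libraries), the knockout labelled Ago134 at day 7 (4 libraries), wild type at day 14 (3 libraries) and the knockout at day 14 (3 libraries). The series text calls the mice littermates and also names 15 days for the later time, whereas the sample labels give 14. The labels do not tie libraries to mice or cultures, so p-values measure the spread between these libraries, part of which may be technical. Naive cells at day 0 were not analysed here.

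Naive T cells are held in a resting, recirculating state by a set of transcription factors. TCF-1, the product of Tcf7, and LEF-1 are related HMG-box factors, FOXO1 is a forkhead factor that is kept out of the nucleus when AKT is active, and KLF2 lies downstream of FOXO1 and drives genes for exit from and entry into lymphoid tissue. FOXP1 maintains quiescence, BACH2 represses effector genes, SATB1 organises chromatin, and ID3 binds E proteins and keeps them off DNA. Dapl1 and Actn1, an actin crosslinker, are not transcription factors and belong to the naive signature as markers. Activation lowers most of these genes, and effector and memory cells differ in how much of the programme they keep.

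The 10 genes lie on chromosomes 11 (Tcf7), 3 (Lef1 and Foxo1), 6 (Foxp1), 8 (Klf2), 4 (Bach2 and Id3), 17 (Satb1), 2 (Dapl1) and 12 (Actn1), and all 10 passed the filter on low counts. Library totals ran from 23326248 to 35803197 counted reads, and 12534 to 13241 genes had at least 1 read. Ago1 had 128 to 141 reads in the wild-type libraries at day 7 and 67 to 100 at day 14, against 0 at day 7 and 0 to 2 at day 14 in the libraries labelled knockout. Ago3 kept 39 to 69 reads in the knockout at day 7 (74 to 159 in wild type) and 40 to 53 at day 14 (55 to 143 in wild type). Ago4 had more reads in the knockout, with 62 to 103 against 11 to 26 at day 7 and 79 to 161 against 10 to 91 at day 14. The sources used here do not give the deleted exons, so only Ago1 checks the genotype labels. T cell genes such as Cd3e and Cd4 were present in every library, the defining B cell genes Ms4a1 and Pax5 averaged at most 0.0206 CPM in any group, and Ebf1 and Fcer2a had no read. Other B cell genes had reads, and Cd79a, Cd79b and Ighm passed the filter on low counts. At day 7 the 9 listed B cell genes summed to 2312 to 2893 CPM in wild type, nearly all of it Ighm. In the knockout they summed to 2605 to 3078 CPM at day 7. CPM are read counts scaled to a common library size, here with edgeR's TMM factors. The file names carry 2 runs of sequencing identifiers: the first holds all knockout day 7 libraries, wild-type day 7 libraries 2 to 4 and wild-type day 14 library 2, and the second holds all others. For the knockout, day and identifier run therefore cannot be told apart except through the wild-type libraries.

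Per length of counted sequence, in the RPKM values of the deposited tables, the wild-type order at day 7 was Satb1 at 429 ± 22.3 (SD, n = 4), Tcf7 at 389.9 ± 20.2, Klf2 at 277 ± 37.7, Lef1 at 229 ± 16.6, Foxo1 at 187 ± 9.02, Foxp1 at 67.1 ± 12.1, Id3 at 27.0 ± 5.61, Dapl1 at 15.3 ± 1.81, Bach2 at 13.4 ± 1.95 and Actn1 at 7.65 ± 2.47. The libraries of Satb1 and Tcf7 overlapped, as did those of Klf2 and Lef1, of Dapl1 and Bach2, and of Bach2 and Actn1, whereas each other neighbouring pair was apart in all 4 libraries. At this time Satb1 was the 73rd and Tcf7 the 84th most abundant gene per length of the 22598. By day 14 in wild type Satb1 still led at 240.2 ± 65.5 RPKM (SD, n = 3), followed by Lef1 at 95.7 ± 30.6 and Tcf7 at 67.1 ± 52.7. Id3 had come down to 4.43 ± 0.809 RPKM, Actn1 to 0.205 ± 0.16 and Dapl1 to 0.124 ± 0.0622, at the bottom of the order. From Lef1 through Tcf7, Foxo1 and Klf2 to Foxp1 each neighbouring pair overlapped at day 14, so that stretch of the order was not resolved.

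**Figure D1:**
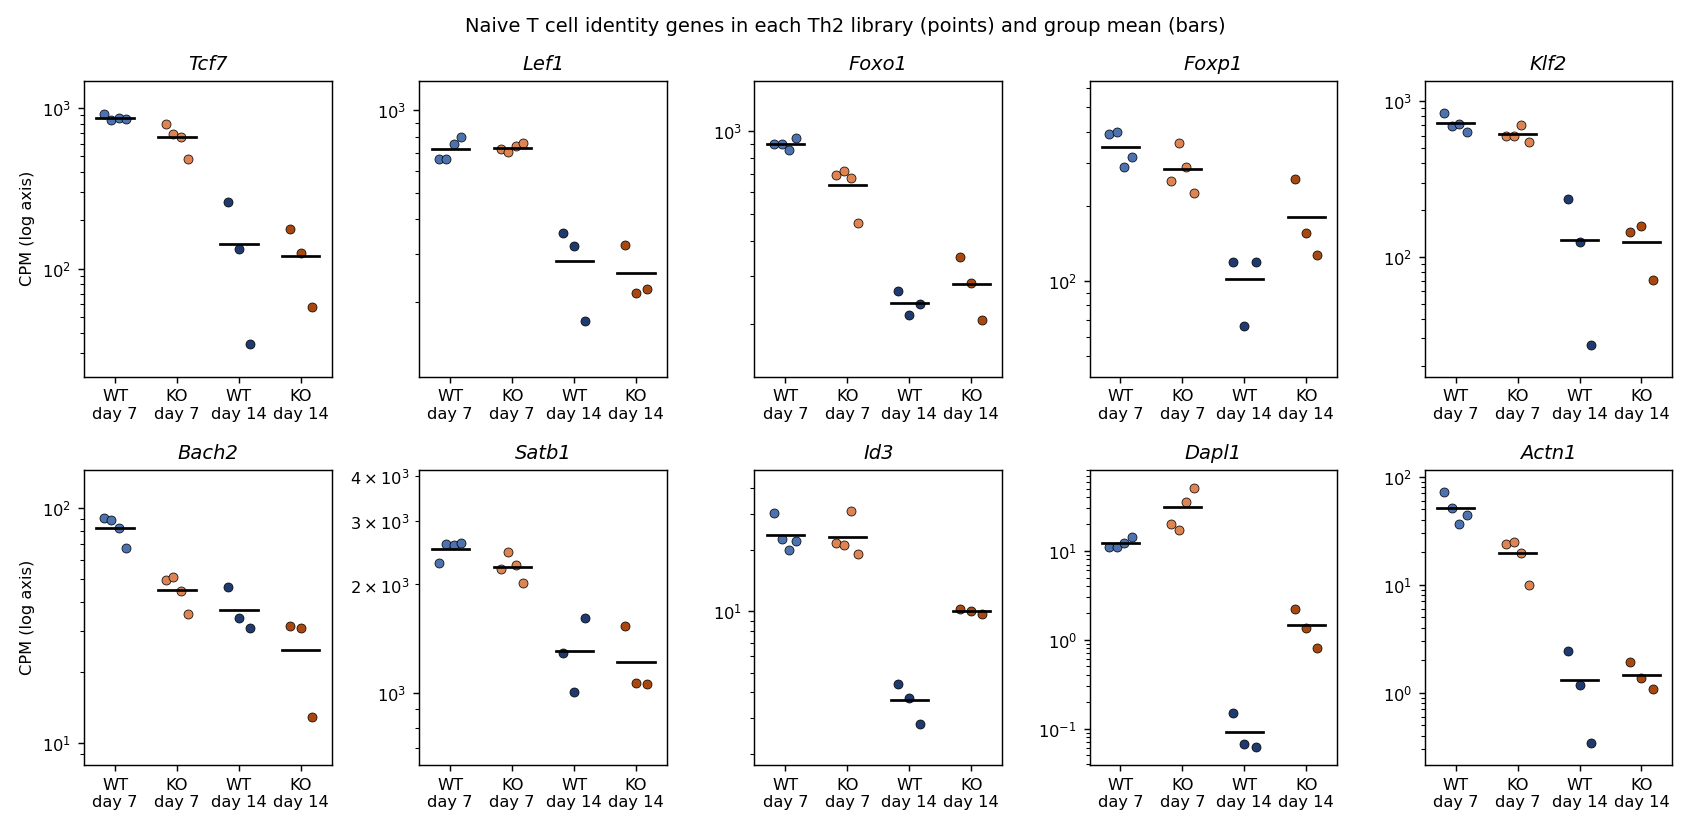
CPM of each gene (log axis) in the 14 libraries, by genotype and day; points are libraries and horizontal bars are group means. All 10 genes sit lower at day 14 than at day 7 in wild type, and Dapl1 and Id3 sit higher in the knockout than in wild type at day 14.

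The first comparison asked how the naive programme moved between day 7 and day 14 of wild-type Th2 culture. All 10 genes fell (10 of 10 with an adjusted p under 0.05, quasi-likelihood test of edgeR, adjusted by Benjamini-Hochberg over 11591 genes), where 7.33% of all genes tested were called lower. In each of the 10 every day 14 library lay below every day 7 library, a pattern found for 13.8% of all genes tested. The median change of the 10 genes was -2.19 on the log2 scale, beside -0.002 for all genes tested. In bulk RNA, fewer cells in a naive-like state and less RNA per cell cannot be told apart.

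Among the TCF and LEF factors, Tcf7 stood at 919, 846, 869 and 849 CPM in the 4 wild-type libraries at day 7 and at 261, 132 and 34.0 CPM in the 3 at day 14. The day 14 libraries spanned 7.69-fold while those at day 7 spanned 1.09-fold, and the groups did not overlap. Tcf7 fell by 2.61 ± 0.53 on the log2 scale (SE, adjusted p = 0.00303), to 16.3% of its day 7 mean. Lef1 ran from 665 to 799 CPM at day 7 and from 171 to 358 CPM at day 14, and fell by 1.35 ± 0.23 (adjusted p = 0.000897). Lef1 kept 39.2% of its day 7 mean.

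Of the forkhead factors, Foxo1 was at 894, 894, 851 and 946 CPM at day 7 and at 265, 217 and 236 CPM at day 14 in wild type. Both groups were tight, and Foxo1 fell by 1.90 ± 0.21 (adjusted p = 3.15e-05). Foxp1 had 391, 399, 288 and 315 CPM at day 7 and 120.1, 66.2 and 120.1 CPM at day 14, and fell by 1.77 ± 0.29 (adjusted p = 0.000602). Klf2, the zinc-finger factor downstream of FOXO1, went from 843, 689, 715 and 636 CPM to 236, 125 and 27.2 CPM. Its day 14 libraries spread 8.68-fold, as those of Tcf7 did, and library 3 was the lowest for both genes. Klf2 fell by 2.48 ± 0.51 (adjusted p = 0.00344).

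The repressor gene Bach2 had 90.7, 89.2, 81.9 and 67.5 CPM at day 7 and 46.1, 33.9 and 30.8 CPM at day 14 in wild type, and fell by 1.16 ± 0.29 (adjusted p = 0.0105). Satb1, the most abundant of the 10, ran from 2293 to 2607 CPM at day 7 and from 1004 to 1616 CPM at day 14. It fell by 0.95 ± 0.19 (adjusted p = 0.00259), the smallest fall of the 10, and kept 51.8% of its day 7 mean. Id3, the E protein inhibitor, had 30.3, 22.6, 20 and 22.1 CPM at day 7 and 4.39, 3.77 and 2.81 CPM at day 14. Id3 fell by 2.70 ± 0.26 (adjusted p = 1.48e-05).

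The 2 markers that are not transcription factors had the largest falls. Dapl1 lies at chr2:59484653-59505020 on the plus strand and Actn1 at chr12:80167547-80260371 on the minus strand of GRCm38. Dapl1 was at 10.9, 11, 12.3 and 14.4 CPM at day 7, and had 4, 2 and 2 reads at day 14 (0.149, 0.0668 and 0.0618 CPM). From 1458 reads in the day 7 group to 8 in the day 14 group, the ratio was 133 (95% exact interval 67.5 to 309, counting error only), and in the fit Dapl1 fell by 7.00 ± 0.59 (adjusted p = 5.12e-06). Actn1 went from 72.6, 51.7, 36.7 and 43.8 CPM to 2.42, 1.17 and 0.34 CPM, and fell by 5.30 ± 0.59 (adjusted p = 4.16e-05). Both genes were low in wild type at day 14, with Dapl1 below 1 CPM in all 3 libraries and Actn1 in library 3. Fitted within the second identifier run alone, which leaves 1 wild-type library at day 7 and 2 at day 14, the call held for Id3, Dapl1 and Actn1 and was lost for the other 7 genes. Their log2 changes there were -2.63 for Tcf7, -1.31 for Lef1, -1.80 for Foxo1, -1.66 for Foxp1, -2.67 for Klf2, -1.21 for Bach2 and -0.61 for Satb1, with wider standard errors.

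The promoters of Dapl1 and Actn1, the genes with the largest falls, and of Satb1, the gene with the smallest, are printed to show the sequence before each start. They come from RefSeq windows on GRCm38.p6, in which all 10 genes had an entry, and hold the bases before the gene start, 5′ to 3′ on the gene's strand. Capitals mark a match to a FOXO motif searched on both strands (TGTTTAC, here in reverse complement).
Dapl1, chr2:59484403-59484652, plus strand: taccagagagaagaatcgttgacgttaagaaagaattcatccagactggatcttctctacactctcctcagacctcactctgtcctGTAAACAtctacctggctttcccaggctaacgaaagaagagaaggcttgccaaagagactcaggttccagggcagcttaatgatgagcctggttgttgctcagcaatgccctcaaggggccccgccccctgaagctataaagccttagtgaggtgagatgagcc
Actn1, chr12:80260372-80260613, minus strand: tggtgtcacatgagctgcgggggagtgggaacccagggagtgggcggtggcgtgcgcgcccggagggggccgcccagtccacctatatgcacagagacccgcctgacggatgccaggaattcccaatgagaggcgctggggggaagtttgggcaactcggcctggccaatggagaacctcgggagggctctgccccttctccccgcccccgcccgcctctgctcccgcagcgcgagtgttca
Satb1, chr17:51833291-51833540, minus strand: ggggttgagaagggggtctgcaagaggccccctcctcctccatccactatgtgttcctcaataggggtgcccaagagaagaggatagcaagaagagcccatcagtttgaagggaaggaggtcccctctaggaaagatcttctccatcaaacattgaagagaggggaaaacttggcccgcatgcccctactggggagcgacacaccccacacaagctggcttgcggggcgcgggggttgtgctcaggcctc
In the 250-base windows, the FOXO letters TGTTTAC occurred in 1 of the 10 genes (Dapl1) and in 3.17% of all 32536 promoters. The TCF and LEF letters CTTTGA occurred in 1 of 10 (Bach2) against 13.9%, the E-box CANNTG in 5 of 10 against 66.2%, and the KLF letters CCACACCC in 0 of 10 against 3.2%. These are matches of letters on both strands and not measured binding sites. The windows were set before RefSeq starts. Those of Bach2, Foxp1 and Id3 lie wholly inside the annotated gene and reach 178631, 1728 and 325 bases into it. The Bach2 match is therefore not before the annotated start of that gene.

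In the knockout the same comparison between day 7 and day 14 gave 8 of 10 genes lower and none higher, where 4.92% of all genes tested were called lower. The median change of the 10 genes was -1.37, beside 0.021 for all genes tested. Tcf7 went from a range of 478 to 799 CPM at day 7 to 177, 125 and 58.0 CPM at day 14 (log2 change -2.45 ± 0.52, edgeR adjusted p = 0.00562), and Klf2 from a range of 550.2 to 703 CPM to 144, 158 and 71.1 CPM (-2.30 ± 0.51, adjusted p = 0.00666). Lef1 changed by -1.52 ± 0.23 (adjusted p = 0.000608), Foxo1 by -1.19 ± 0.20 (adjusted p = 0.00111) and Satb1 by -0.88 ± 0.19 (adjusted p = 0.00537). The day 14 libraries of Foxo1 were at 349, 283 and 207 CPM and those of Satb1 at 1529.8, 1064 and 1054 CPM. Id3 changed by -1.21 ± 0.25 (adjusted p = 0.00378), Actn1 by -3.74 ± 0.55 (adjusted p = 0.000485) and Dapl1 by -4.40 ± 0.47 (adjusted p = 6.62e-05). As in wild type, Dapl1 and Actn1 had the largest falls and Satb1 had the smallest of the genes called.

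The 2 genes not called in the knockout were Bach2 and Foxp1. Bach2 had 49.4, 50.7, 44.4 and 35.5 CPM at day 7 and 31.4, 30.8 and 12.9 CPM at day 14 (log2 change -0.85 ± 0.29, adjusted p = 0.06). Its libraries did not overlap between the days. Foxp1 had 253, 359.5, 289 and 227 CPM at day 7 and 258, 156 and 128 CPM at day 14 (log2 change -0.64 ± 0.27, adjusted p = 0.143), and its day 14 library 1 lay inside the day 7 range. The other 8 genes and Bach2 did not overlap between the days (9 of 10, beside 10.2% of all genes tested). With a term for identifier run, which is estimated from the wild-type libraries, Foxo1, Id3, Dapl1 and Actn1 kept their call (4 of 10), and Tcf7, Klf2, Lef1 and Satb1 had adjusted p of 0.0771, 0.0763, 0.0502 and 0.0686 at log2 changes of -2.58, -2.50, -1.31 and -1.04. Bach2 and Foxp1 were called without knockout day 14 library 1 (adjusted p = 0.0365 and 0.0221) and with limma-voom (0.00892 and 0.0241). Bach2 was also called with DESeq2 (0.0215), with the replicate number as a block (0.0226), with the GC and length trend removed (0.0156), without knockout day 7 library 4 (0.0456) and without wild-type day 14 library 3 (0.0454).

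**Figure D2:**
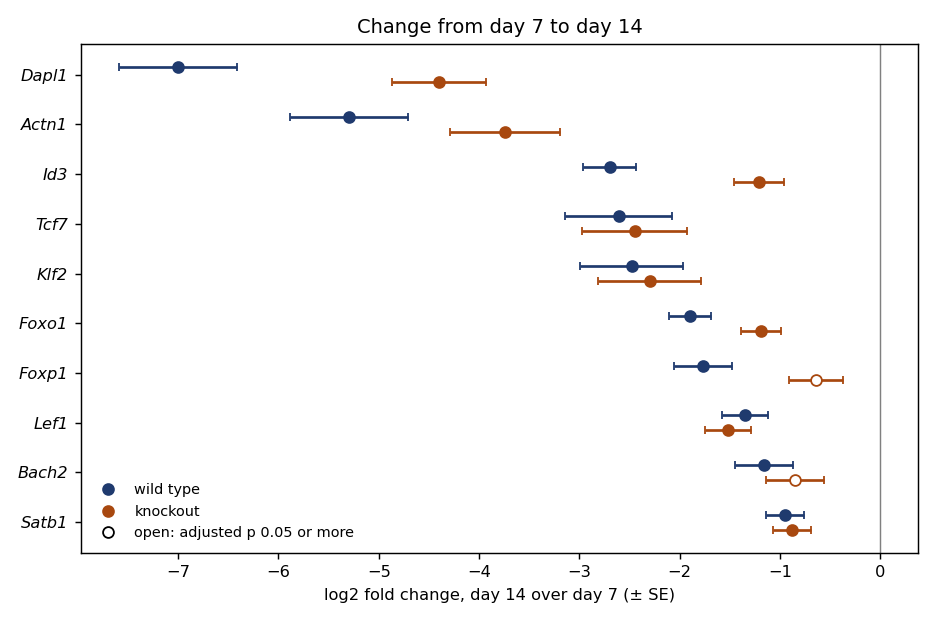
Log2 fold change of each gene from day 7 to day 14 (x axis, with SE) in wild type and in the knockout; open symbols did not reach an adjusted p under 0.05. Every point lies left of 0, and Dapl1 and Actn1 have the largest falls in both genotypes.

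At day 7, the knockout was compared with wild type to ask whether the naive programme differed at the earlier day. None of the 10 genes was called (0 of 10 with edgeR, where 0.0949% of all genes were called in either direction). Of the 10, 4 had an unadjusted p under 0.05, beside 2716 of 11591 genes, and DESeq2 called 3 (Bach2, Dapl1 and Actn1) and limma-voom with sample weights called 4 (those and Foxo1), beside 512 and 5045 of the 11591 genes with these tools. The median log2 difference, knockout minus wild type, was -0.27 for the 10 genes and -0.012 for all genes tested.

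Dapl1 was the one gene of the 10 whose knockout libraries all lay above wild type at day 7, at 20.1, 17.1, 35.1 and 50.9 CPM against 10.9 to 14.4 CPM. The log2 difference was 1.34 ± 0.36 (edgeR adjusted p = 0.154). Higher without overlap held for 9.27% of all genes tested. Below wild type without overlap lay 4 genes, as 12.9% of all genes tested did. Actn1 had 23.9, 24.7, 19.7 and 9.92 CPM against 36.7 to 72.6 CPM (log2 difference -1.39 ± 0.44, adjusted p = 0.154), and Bach2 had 35.5 to 50.7 CPM against 67.5 to 90.7 CPM (-0.87 ± 0.26, adjusted p = 0.154). Foxo1 had 695, 718, 673 and 464 CPM against 851 to 946 CPM (-0.49 ± 0.18, adjusted p = 0.155). Tcf7 had 799, 685, 659 and 478 CPM against 846 to 919 CPM (-0.41 ± 0.45, adjusted p = 0.595).

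For the other 5 genes the genotypes overlapped at day 7. Their log2 differences were 0.02 ± 0.21 for Lef1, -0.04 ± 0.22 for Id3, -0.17 ± 0.17 for Satb1, -0.23 ± 0.43 for Klf2 and -0.30 ± 0.25 for Foxp1, with adjusted p from 0.472 to 0.965. Knockout library 4 was the lowest of its group for 8 of the 10 genes, all but Lef1 and Dapl1, and had the highest Dapl1. Without it the differences were 1.01 for Dapl1, -1.16 for Actn1, -0.76 for Bach2, -0.35 for Foxo1 and -0.27 for Tcf7. The counted length of Dapl1 is 324 bases and that of Id3 360, while Bach2 has 2520 and Actn1 2745. With the trend of each library over GC content and coding length removed, the day 7 differences were 0.58 ± 0.27 for Dapl1 (adjusted p = 0.285), -0.99 ± 0.36 for Actn1, -0.48 ± 0.23 for Bach2 and -0.51 ± 0.26 for Id3.

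At day 14, the libraries labelled knockout held more Dapl1 and more Id3 than wild type. These 2 of the 10 genes were called higher and none lower (edgeR), where 0.845% of all genes tested were called higher. The median log2 difference of the 10 genes was 0.06, beside 0.008 for all genes tested. Dapl1 had 74, 41 and 27 reads in the knockout (2.19, 1.35 and 0.814 CPM) against 4, 2 and 2 in wild type, 142 reads against 8 in all. The ratio of the summed reads was 16.3 (95% exact interval 8.03 to 38.4, counting error only), and the log2 difference was 3.94 ± 0.58 (adjusted p = 0.00642). The knockout stood at 4.73% of its own day 7 level.

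Id3 stood at 10.2, 9.99 and 9.74 CPM in the knockout and at 4.39, 3.77 and 2.81 CPM in wild type at day 14. The knockout libraries spanned 1.05-fold and none overlapped with wild type. The log2 difference was 1.45 ± 0.26, or 2.73-fold (edgeR adjusted p = 0.0156). Id3 lies on chromosome 4 (136143497 to 136145755, plus strand, GRCm38), 9.61 to 9.71 Mb from Ago4, Ago1 and Ago3. Of the 13 tested genes that start within 250 kb of Id3, edgeR called 0 between genotypes at day 14, 1 had an unadjusted p under 0.05, DESeq2 called 1 and limma-voom 2. Over all 11591 genes, edgeR called 165, 2515 had an unadjusted p under 0.05, DESeq2 called 993 and limma-voom 1930. Whether the Argonaute locus has a part in the Id3 difference was not tested.

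Foxp1 was the third gene whose knockout libraries all lay above wild type at day 14, at 258, 156 and 128 CPM against 120.1, 66.2 and 120.1 CPM. Its log2 difference of 0.83 ± 0.29 was not called (adjusted p = 0.138). Higher without overlap held for 3 of the 10 genes and for 9.71% of all genes tested. The other 7 overlapped, with log2 differences of 0.23 ± 0.21 for Foxo1, 0.17 ± 0.54 for Actn1, -0.06 ± 0.50 for Klf2, -0.10 ± 0.20 for Satb1, -0.15 ± 0.24 for Lef1, -0.24 ± 0.51 for Tcf7 and -0.56 ± 0.30 for Bach2 (adjusted p from 0.289 to 0.969). The standard errors of Klf2, Tcf7 and Actn1, at 0.50 to 0.54, were the widest of the 10 after that of Dapl1.

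The day 14 calls rest on the spread shared across the 4 groups. Fitted on the 6 day 14 libraries alone, the log2 differences were 3.88 ± 0.70 for Dapl1 (adjusted p = 0.218) and 1.36 ± 0.38 for Id3 (adjusted p = 0.381), and 0 genes of any kind were called, with 1157 at an unadjusted p under 0.05. Id3 missed the threshold without wild-type library 2 (adjusted p = 0.056) and without knockout library 3 (adjusted p = 0.052), and without wild-type library 3 Foxp1 was called too (adjusted p = 0.0498). With limma-voom and sample weights Dapl1 missed the threshold (log2 difference 3.22 ± 1.16, adjusted p = 0.0669), and Id3 was the gene called.

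**Figure D3:**
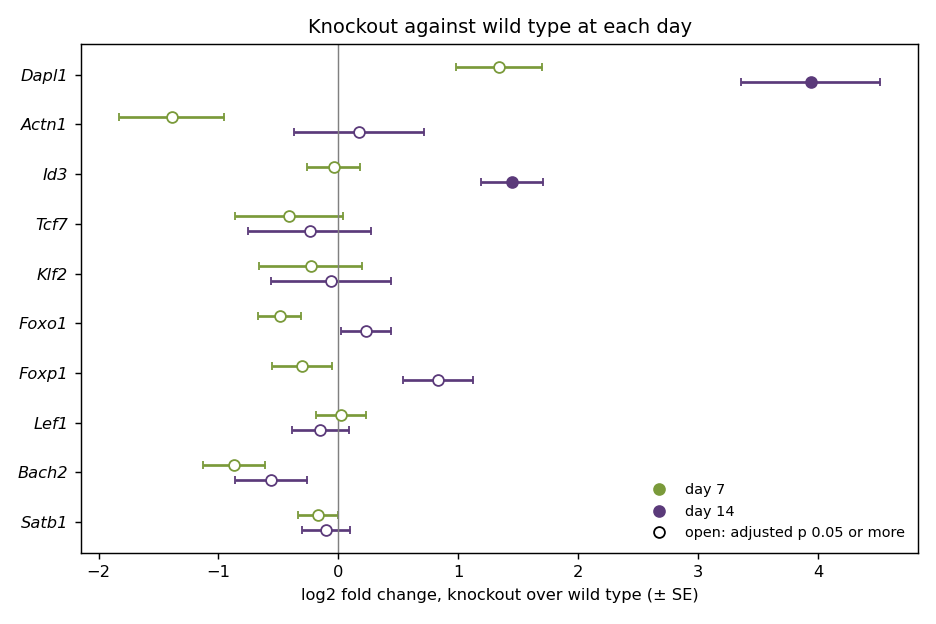
Log2 fold change of each gene in the knockout over wild type (x axis, with SE) at day 7 and at day 14; open symbols did not reach an adjusted p under 0.05. Dapl1 and Id3 at day 14 are the filled points, and Dapl1 lies right of 0 on both days.

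Whether the change over time differed between the genotypes was tested as an interaction, the knockout change minus the wild-type change. None of the 10 genes was called (0 of 10 with edgeR, where 0.0863% of all genes were called), 5 had an unadjusted p under 0.05, and DESeq2 called 1 (Id3) and limma-voom 0, beside 924, 163 and 471 of all 11591 genes. The median of the 10 genes was 0.51, beside 0.059 for all genes tested. The interaction was 1.48 ± 0.34 for Id3 (adjusted p = 0.133), 2.60 ± 0.68 for Dapl1 (adjusted p = 0.211), 1.13 ± 0.38 for Foxp1 (adjusted p = 0.37), 0.72 ± 0.27 for Foxo1 (adjusted p = 0.486) and 1.56 ± 0.69 for Actn1 (adjusted p = 0.606). The smaller log2 fall of these 5 genes in the knockout was therefore not called as a difference between the genotypes. The day 14 and day 7 groups of each genotype enter both this test and the tests above.

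The day 14 libraries of one group differed widely for some of the genes and little for others. Within wild type, where library 3 was the lowest for 7 of the 10 genes, libraries 1, 2 and 3 had 261, 132 and 34.0 CPM of Tcf7, 236, 125 and 27.2 CPM of Klf2 and 2.42, 1.17 and 0.34 CPM of Actn1. Satb1 did not follow them, since library 3 had the highest Satb1 of the 3 (1616 CPM), and Foxo1 differed only 1.22-fold. In the knockout, library 3 was the lowest of its group for 9 of the 10 genes, all but Lef1, with Tcf7, Klf2, Bach2, Dapl1 and Actn1 at 58.0, 71.1, 12.9, 0.814 and 1.09 CPM. The summed CPM of 15 cell division genes, among them Mki67, Top2a and Cdk1, was 768, 793 and 1689 in the wild-type day 14 libraries and 1212, 2681 and 3344 in the knockout ones. At day 7 it ran from 442 to 574 over both genotypes. In both genotypes the day 14 library with the most cell division RNA had the least Tcf7, Klf2 and Actn1, and the part of this in the results was not tested.

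**Figure D4:**
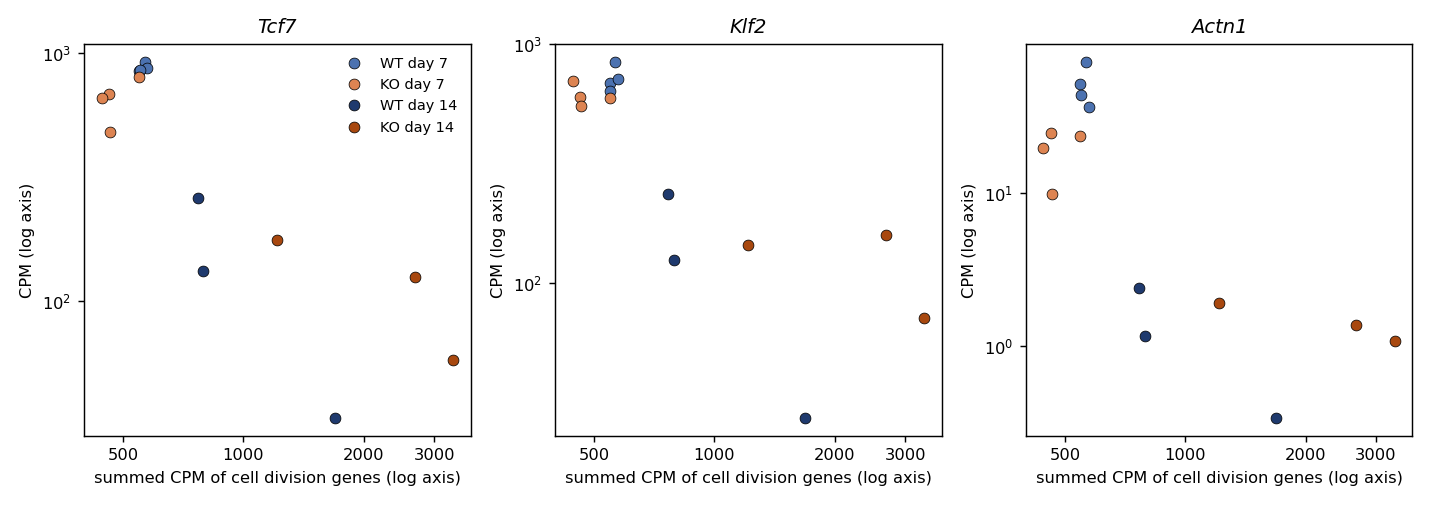
CPM of Tcf7, Klf2 and Actn1 (log axis) against the summed CPM of 15 cell division genes (log axis), with a point for each of the 14 libraries. Day 7 libraries lie together at 442 to 574, and among day 14 libraries the one with the highest division sum in each genotype has the lowest value of all 3 genes.

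Genes that act with the 10 were read from lists of homing, quiescence, partner, upstream and effector genes. Of 14 tested homing and survival genes of naive T cells, 8 fell and 0 rose between the days in wild type (median -1.44), where 7.33% of all genes tested were called lower and 13.2% higher. In the knockout 7 fell and 1 rose (median -1.58), beside 4.92% and 10.5% of all genes. Gpr183, a receptor that positions lymphocytes, fell by 4.34 ± 0.29 in wild type (edgeR adjusted p = 1.09e-06), from 538 ± 55.0 to 26.5 ± 8.93 CPM. Ly6c1, a surface antigen of naive and memory T cells, fell by 4.11 ± 0.48 (adjusted p = 5.63e-05), and S1pr1, the receptor for exit from lymph nodes, fell by 3.5 ± 0.49 (adjusted p = 0.000224). Itgb7, the most abundant gene of the list, had 5671 ± 629 and 4611 ± 1357 CPM and was not called. The gene that rose in the knockout was Igfbp4, from 147 ± 8.57 to 313 ± 172 CPM (adjusted p = 0.0454).

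At day 14, 2 of these 14 genes were higher in the knockout, as Dapl1 and Id3 were, and none was lower, where 0.845% of all genes were called higher. They were Gpr183 at 76.2 ± 27.0 against 26.5 ± 8.93 CPM (log2 difference 1.52 ± 0.27, adjusted p = 0.0127) and Ly6c1 at 20 ± 7.9 against 4.58 ± 1.19 CPM (2.13 ± 0.45, adjusted p = 0.0346). Among named genes with a mean of at least 5 CPM, Ly6c1 also had the profile most like that of Dapl1 over the 14 libraries. At day 7, edgeR did not call Ly6c1 between the genotypes (log2 difference 1.33 ± 0.38, adjusted p = 0.154), while DESeq2 did, beside 512 of 11591 genes. Its knockout libraries ran from 99.1 to 379.9 CPM at day 7, against 60.7 to 98.7 CPM in wild type. Higher without overlap held for 9.27% of all genes tested.

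Genes listed as markers of other cell types also moved between the days in wild type, where the 10 genes fell. Of all genes tested, 7.33% were called lower and 13.2% higher. The summed CPM of 9 B cell genes was 2312 to 2893 at day 7 and 642 to 909 at day 14, nearly all of it Ighm, the mu heavy chain gene (log2 change -1.70 ± 0.20, edgeR adjusted p = 4.46e-05), and 2 of 3 tested fell. The sum of 8 mast cell and basophil genes was 30.8 to 64.7 CPM at day 7 and 1.07 to 5.69 CPM at day 14, and 3 of 3 tested fell. The sum of 6 regulatory T cell genes was 112 to 189.7 CPM and then 1178 to 1279 CPM, with 3 of 5 tested higher and 1 lower, while Foxp3, the defining gene, stood at 1.03 ± 0.273 and 1.04 ± 0.75 CPM. The sum of 10 myeloid genes was 1.17 to 2.59 CPM and then 8.59 to 30.1 CPM, with 3 of 4 tested higher and Itgax, Itgam and Flt3 without a read. In the knockout the B cell sum was 2605 to 3078 CPM at day 7 and 1452 to 2441 CPM at day 14, and the myeloid sum 2.19 to 7.61 CPM and 15.9 to 27.1 CPM, while the mast cell and regulatory T cell sums overlapped between the days. The part of these genes in the fall of the 10 was not tested.

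The same lists were read beside the day 14 difference between genotypes, where 0.845% of all genes tested were called higher in the knockout. The B cell sum was 642 to 909 CPM in wild type and 1452 to 2441 CPM in the knockout. Nearly all of it was Ighm, at 788 ± 135 and 1889 ± 504 CPM (edgeR adjusted p = 0.00835), the 1 gene of 3 tested that was higher, and Ms4a1, Ebf1 and Fcer2a were at 0 in all day 14 libraries. The mast cell and basophil sum was 1.07 to 5.69 CPM in wild type and 22.5 to 129.8 CPM in the knockout, where Kit (adjusted p = 0.0115) and Cpa3 (adjusted p = 0.027) were higher, 2 of 3 tested, while Mcpt8, Mcpt4, Ms4a2 and Prss34 had no read. The sum of 6 erythroid genes was 0 to 0.0334 CPM in wild type and 0.724 to 0.857 CPM in the knockout. The sum of the CD8 genes Cd8a and Cd8b1 was 6.32 to 7.92 CPM in wild type and 11.4 to 20.6 CPM in the knockout, nearly all of it Cd8b1, which edgeR did not call (adjusted p = 0.112) and DESeq2 and limma-voom did. Sums of the regulatory T cell genes, at 1178 to 1279 CPM in wild type and 308 to 921 CPM in the knockout, lay the other way. Natural killer and innate lymphoid genes (23.4 to 148 against 50.4 to 97.8 CPM) and myeloid genes (8.59 to 30.1 against 15.9 to 27.1 CPM) overlapped. The part of these genes in the day 14 result was not tested.

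**Figure D5:**
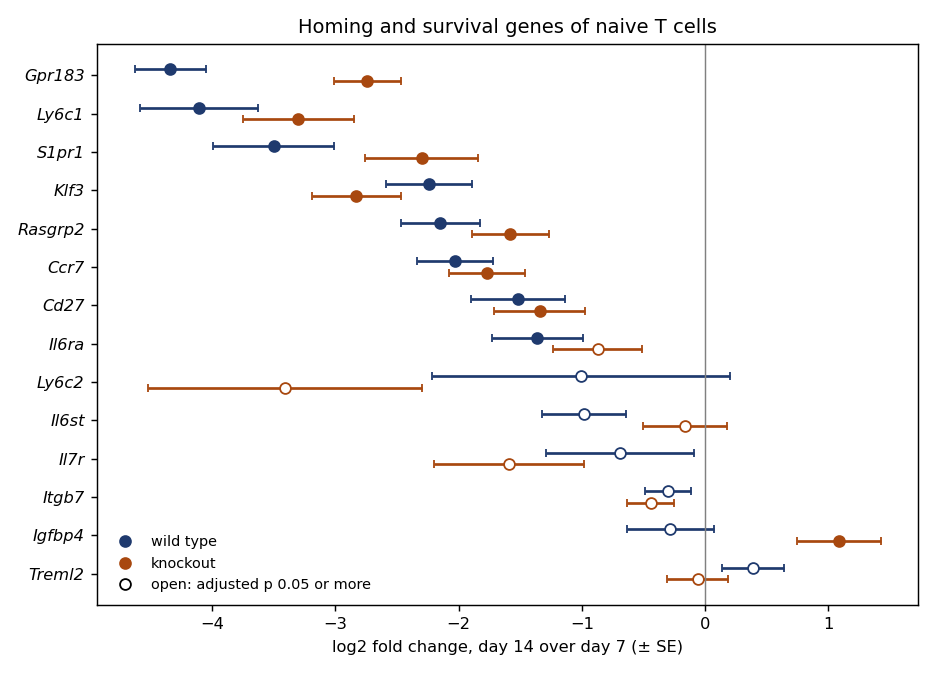
Log2 fold change from day 7 to day 14 (x axis, with SE) of the 14 tested homing and survival genes of naive T cells in wild type and in the knockout; open symbols did not reach an adjusted p under 0.05. Gpr183 and Ly6c1 have the largest falls in wild type, and Igfbp4 is the filled point right of 0 in the knockout.

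Of 14 tested regulators of effector cells, 9 were higher and 0 lower at day 14 in wild type (median 1.75), where 13.2% of all genes tested were called higher. In the knockout 3 were higher and 0 lower (median 0.52), where 10.5% of all genes were called higher. Nfil3, a bZIP factor, rose by 2.15 ± 0.24 in wild type (edgeR adjusted p = 3.95e-05), from 323 ± 76.2 to 1434 ± 179 CPM, and at day 14 it was lower in the knockout, at 448 ± 157 CPM (log2 difference -1.68 ± 0.26, adjusted p = 0.00823). Eomes, a T-box factor, rose by 2.74 ± 0.44 in wild type (adjusted p = 0.000584) and by 4.05 ± 0.47 in the knockout (adjusted p = 0.000112). Batf3 was the one gene of the list called in the interaction (-3.84 ± 0.64, adjusted p = 0.0372). Gata3, the factor that defines Th2 cells, had 536 ± 72.8 CPM in wild type and 544 ± 40.2 CPM in the knockout at day 7. At day 14 it had 439 ± 33.1 CPM in wild type and 519 ± 81.3 CPM in the knockout. Gata3 was not called in any comparison by edgeR or DESeq2. All groups were Th2 cultures, so these levels cannot check the Th2 label.

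Of 17 tested genes of the PI3K and AKT pathway, which restrains FOXO1, edgeR called 0 between genotypes at day 7, where the median was -0.57, 7 had an unadjusted p under 0.05, DESeq2 called 2 and limma-voom 11, beside 2716, 512 and 5045 of all 11591 genes. The most abundant, Pik3cd, a catalytic subunit of PI3K, had 637 ± 265 CPM in the knockout and 1282 ± 159 in wild type. Sgk1, a kinase that acts on FOXO factors, fell by 1.37 ± 0.30 between the days in wild type (adjusted p = 0.00472), and in the knockout it fell by 1.07 ± 0.30 (adjusted p = 0.0239). Of 16 tested partners of TCF and LEF, 1 rose and 2 fell in wild type, shares near those of all genes (13.2% higher and 7.33% lower). Tle4, a corepressor, fell by 1.67 ± 0.34 (adjusted p = 0.00295), Gsk3b fell by 0.81 ± 0.26 (adjusted p = 0.0421), and Ctnnbip1, which encodes a protein that binds beta-catenin, rose by 2.12 ± 0.52 at a low level (0.147 to 0.671 CPM, adjusted p = 0.00974). Ctnnb1, the beta-catenin gene and the most abundant of the list, had 451 ± 45.2 and 596 ± 207 CPM and was not called by edgeR (adjusted p = 0.25). Tcf3, the most abundant of 3 E protein genes whose products ID3 can bind, had 375 ± 27.7, 254 ± 65.9, 437 ± 161 and 282 ± 92.5 CPM in wild type and knockout at day 7 and wild type and knockout at day 14. No E protein gene was called in any comparison by edgeR or DESeq2. Of the 3, limma-voom called 2 between genotypes at day 7, 1 at day 14 and 1 over time in wild type, beside 5045, 1930 and 4581 of all 11591 genes. Of 20 tested quiescence genes, 2 rose and 3 fell in wild type, again near the shares of all genes. Among them Tob1, an antiproliferative gene, fell by 2.96 ± 0.39 (adjusted p = 0.000145), and Slfn2, the most abundant, had 1681 ± 266 and 1295 ± 429.8 CPM and was not called (adjusted p = 0.255).

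Close relatives of the 10 genes did not all follow them. Of 14 tested paralogs, 4 fell and 1 rose in wild type (7.33% and 13.2% of all genes tested), and 3 fell and 0 rose in the knockout (4.92% and 10.5%). Id2, the relative of Id3, rose by 1.08 ± 0.29 in wild type (edgeR adjusted p = 0.0163), from 104 ± 17.9 to 221 ± 104 CPM, while Id3 fell. Bach1 fell by 1.59 ± 0.37 (adjusted p = 0.00717), as Bach2 did. Actn2 fell by 2.21 ± 0.33 (adjusted p = 0.000368) and Actn3 fell by 2.05 ± 0.56 (adjusted p = 0.0169), whereas Actn4, the most abundant alpha-actinin gene here by counts, had 1276 ± 42.6 and 1255 ± 241 CPM and was not called. Foxo3, a relative of Foxo1, had a log2 change of -0.77 ± 0.23 in the knockout (adjusted p = 0.0375).

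Profiles over the 14 libraries were compared by the root mean square difference of log2 CPM after centring each gene. The pool was 8229 genes with a mean of at least 5 CPM, without predicted genes and unnamed clones. Tcf7 and Klf2 were each other's nearest gene in this pool, at a difference of 0.24. Foxo1 was nearest to Galnt4 and Tmem131l (0.16 each), Foxp1 to Pitpnc1 (0.20), Lef1 to Ank (0.24), Bach2 to Fryl (0.18) and Satb1 to Gpatch8 and Parp4 (0.16 each). Id3 was nearest to Clybl (0.27), whose fitted day 14 difference between genotypes was 1.58 beside 1.45 for Id3. Dapl1 was nearest to Ly6c1 (0.44), Gpr183 (0.68) and Cd9 (0.70), and Actn1 to Cpm (0.60). Among the 10 genes themselves, Dapl1 and Actn1 lay farthest from the rest, at 1.23 from Klf2 and 0.85 from Tcf7. Profiles were centred but not scaled, so genes with large changes lie far from others by this measure. The root mean square of the centred profile was 2.22 for Dapl1 and 2.17 for Actn1, beside 0.5 (Satb1) to 1.54 (Tcf7) for the others. These differences are descriptions over libraries that share day, genotype and identifier run.

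Each gene's surroundings were read from the tested genes that start within 250 kb. Tanc1, 127 kb from Dapl1 and its only tested neighbour (chr2:59612042-59846149), was lower in the knockout at day 7, at 4.17 ± 1.62 against 29.6 ± 7.77 CPM (log2 difference -2.83 ± 0.38, edgeR adjusted p = 0.00437), where the log2 difference of Dapl1 was 1.34. At day 14 Tanc1 had 4.05 ± 2.5 against 7.26 ± 0.998 CPM and was not called (adjusted p = 0.256). Of the 35 tested neighbours of the other genes, edgeR called 0 between genotypes at day 7 and 0 at day 14, with 13 and 8 at an unadjusted p under 0.05, while DESeq2 called 3 and 4 and limma-voom 20 and 8. Over all 11591 genes, 2716 and 2515 had an unadjusted p under 0.05, DESeq2 called 512 and 993, and limma-voom 5045 and 1930. Foxp1 is the one gene of the 10 with another counted gene inside its span (Gm20696), and the sources used here do not say whether counting used strand, so reads of the pair may be mixed.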

How the data were processed

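Total RNA of cultured Th2 cells was sequenced from paired ends in 14 libraries, and the submitters' processing notes name the aligner GSNAP 2013-11-01 and the build GRCm38. No counting tool, strand setting or annotation was given in the sources used here. The authors deposited, per gene and library, a read count, an RPKM value and a width, as the file headers name them; 86.7% of the widths are whole multiples of 3, so they are read as coding lengths. Counts were tested as deposited. RPKM was used only to order genes within a group.

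Samples were grouped by the genotype and day in their titles. Symbols came from GENCODE mouse release 21. edgeR 4.0.16 (R 4.3.3) fitted quasi-likelihood models with TMM scaling, filterByExpr and 1 mean per group over all 14 libraries. Benjamini-Hochberg adjustment ran over the 11591 genes tested in each of 5 comparisons. With edgeR, SE was worked back as the absolute log2 fold change divided by the square root of the F statistic. With limma-voom, SE is that of the log2 fold change. A gene is called where the adjusted p is under 0.05. The common coefficient of variation between libraries was 0.354. Count ratios of Dapl1 have exact binomial intervals that cover counting error only.

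Alternatives were RLE scaling, no filter, fits on the compared groups alone, DESeq2 1.42.0, limma-voom (limma 3.58.1) with sample weights, a replicate block, a term for identifier run, fits within a run, removal of the GC and length trend, and each library left out. Added after the data were seen was a fit without wild-type day 14 library 3 and knockout day 7 library 4. The scripts were tested on simulated data. The 10 genes and the 16 context lists (180 genes, 142 tested) were chosen with earlier results of these data known, so their counts are descriptions. Some genes of these lists are not reported here. All 10 genes are named in every comparison; from a context list the text may name called genes with the smallest adjusted p (at most 4), the most abundant gene and defining markers at 0. Gata3 and Foxp3, which define their cell types, were named after their values were seen. Similar genes are the 3 nearest by centred log2 CPM (0.5 added), and neighbours start within 250 kb. Promoter windows came from RefSeq on GRCm38.p6.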

Additional observations from a re-analysis of the deposited data

Results flagged for a closer look

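Wild-type day 7 library 1 stood apart from its group for Satb1, at 2293 CPM against 2569.9 to 2607 CPM in the other 3 libraries. The gap to the nearest library was 0.881 of the range of the group. This was the one such case among 20 groups of 4 libraries examined for the 10 genes, and chance gives about 1 in 20. The library is also the only day 7 library of the second identifier run.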

How the results depend on the processing

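Over the alternatives, the fall of the 10 genes in wild type kept its direction in each fit and its count of 10 in each but the fit within the second identifier run, where 1 wild-type library is left at day 7 and 3 of the 10 and 95 genes in all were called; the log2 changes of the 7 lost ran from -0.61 (Satb1, -0.95 with all libraries) to -2.67 (Klf2, -2.48). In the knockout 8 of 10 became 4 (370 genes) with a term for identifier run, and 8 to 10 with 1 library left out (1061 to 2420 genes). At day 14 the 2 calls between genotypes became 1 with limma-voom, which lost Dapl1 (adjusted p = 0.0669), 0 on the compared groups alone and 0 within the second run (0 genes called in both, with 1157 and 886 at an unadjusted p under 0.05), and 1 to 3 with 1 library left out. At day 7 the count of 0 became 3 with DESeq2 and 4 with limma-voom. In the interaction it became 1 with DESeq2 and 0 to 1 with 1 library left out. The cause of these shifts was not tested, beyond fewer libraries in the smaller fits.

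Counts over all genes moved more. DESeq2 called 512 genes at day 7, 993 at day 14 and 163 in the interaction, and limma-voom 5045, 1930 and 471, with 4581 over time in wild type and 2706 in the knockout, beside 11, 165, 10, 2375 and 1792 with edgeR. Removing the GC and length trend gave 19, 441, 61, 3613 and 2884, with 8 higher and 11 lower at day 7 (6 and 5 before), 1770 higher and 1843 lower over time in wild type (1525 and 850 before), and 32 higher and 29 lower in the interaction (7 and 3 before). The term for identifier run gave 79 at day 14 and 1 in the interaction. Without 1 library the counts ran from 42 to 2640 at day 14 and from 1 to 380 in the interaction, both highest without wild-type day 14 library 3. Without that library and knockout day 7 library 4, 2998 genes were called at day 14, 327 in the interaction and 3799 over time in wild type, and of the 10 genes 0 at day 7, 3 at day 14, 10 over time in wild type and 9 in the knockout.

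Over 480 refits of the differences between genotypes, called or not, 28 changed sign. All 28 were refits of differences that were not called, each of a value no larger than 0.24 on the log2 scale. Over fits without 1 library the differences that changed sign ran from -0.29 to 0.96 for Actn1, -0.54 to 0.71 for Klf2, -0.41 to 0.052 for Lef1, -0.30 to 0.082 for Satb1 and -0.71 to 0.54 for Tcf7 at day 14, and from -0.20 to 0.10 for Id3 and -0.018 to 0.072 for Lef1 at day 7. With limma-voom Actn1 was -0.35 at day 14 and Id3 0.21 at day 7. Without the GC and length trend Klf2 was 0.32, Satb1 0.13 and Tcf7 0.054 at day 14, and Lef1 was -0.071 and Satb1 0.14 at day 7. With the term for identifier run Id3 was 0.035 and Lef1 -0.032 at day 7, and within the first run 0.10 and -0.019. Without both libraries that stand apart Actn1 was -0.29 and Satb1 0.083 at day 14, and Id3 was 0.044 at day 7.

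Whether replicate numbers pair the libraries could not be decided from so few libraries per group. Same-numbered libraries of the day 7 genotypes deviated together with correlations of -0.109, 0.356, -0.075 and 0.252, and those at day 14 with 0.193, 0.336 and 0.054. Wild-type day 7 libraries 2 and 4 and day 14 libraries 1 and 2 were closest to the same-numbered knockout library. Wild-type day 7 libraries 1 and 3 and day 14 library 3 were closest to knockout libraries 2, 4 and 1 (0.411, 0.278 and 0.204). With the number as a replicate block, 0, 2, 0, 10 and 9 of the 10 genes and 15, 236, 7, 2221 and 1607 genes in all were called in the 5 comparisons, and Klf2 was 0.10 between genotypes at day 14. Depth limits Dapl1 and Actn1 at day 14, where wild type held 8 and 111 reads over 3 libraries.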
